A study of Mus musculus with 6 samples.

Results

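The collagen-binding and mucosal integrins described here are 7 mouse genes, Itga1, Itga2, Itgae, Itgb7, Itgb1, Itga4 and Itgav. They were taken by name, together with each of their probe sets, a probe set being a group of short oligonucleotides that reads 1 transcript or a part of it. A probe set was taken where the platform annotation gives it that 1 gene symbol, and 22 of 45037 probe sets were found. Of these, 13 had a log2 signal of at least 5, taken as background level, on at least 1 of the 6 arrays and could be tested, and 9 could not. Every one of the 7 genes had at least 1 tested probe set. The rule itself uses gene names and no measured value, but the set was put together with earlier results of these data known.

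Integrins are pairs of an alpha and a beta chain that span the cell membrane and hold a cell to matrix or to other cells. The alpha1 chain (Itga1, CD49a) and the alpha2 chain (Itga2, CD49b) both pair with the beta1 chain (Itgb1, CD29) to make receptors for collagen. The alphaE chain (Itgae, CD103) pairs with the beta7 chain (Itgb7) and binds E-cadherin on epithelial cells. The alpha4 chain (Itga4, CD49d) pairs with beta7, which binds the mucosal addressin MAdCAM-1, or with beta1, which binds VCAM-1 and fibronectin. The alphaV chain (Itgav, CD51) pairs with several beta chains and binds matrix proteins and latent TGF-beta. CD49a is known as a marker of tissue-resident NK cells and type 1 innate lymphoid cells, and CD49b of circulating NK cells.

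The arrays hold RNA of NK cells from spleens of Runx3-/- mice (3 arrays), which lack the transcription factor Runx3, and of WT mice, Runx3 +/+ (3 arrays). All mice were of the ICR strain and 6 weeks old, each sample came from an individual mouse by the design text, and the sex label names both sexes for each of them. The cells were unstimulated (resting), had been enriched by removal of other cells and were then sorted for DX5, the surface antigen CD49b. The deletion was carried by the whole animal, so that every cell type of the donor lacked Runx3, and the sort selected on the protein of a member gene, Itga2.

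Over all arrays, 37.8% to 39.4% of the probe sets reached log2 5. Correlations between arrays over the tested probe sets, which are not independent replicates, ran from 0.944 to 0.972 within groups and from 0.925 to 0.958 between them. Runx3 itself had 7.76, 8.51 and 8.68 in Runx3-/- NK cells and 10.11, 11.56 and 10.73 in WT NK cells (log2 signal) on probe set 1440275_at, with no overlap between the groups (limma adjusted p = 0.0960). A second Runx3 probe set, 1421467_at, was near background, with 4.57, 3.77 and 4.65 in Runx3-/- and 4.63, 4.59 and 5.88 in WT, and its groups overlapped (limma adjusted p = 0.462). Whether the oligonucleotides of either lie in the deleted stretch is not stated. The 11 NK cell markers averaged 13.5, 13.7 and 13.5 in Runx3-/- and 13.8, 13.3 and 13.7 in WT (mean log2 signal), and each reached log2 5 on at least 1 array. Eomes, a transcription factor of mature NK cells, was the 1 among them that met the criterion given next, 1.63-fold lower (limma adjusted p = 0.185). Of 19120 probe sets tested across the array, 16 passed the Benjamini-Hochberg (BH) adjustment at 5%, which is 0.0837%, and no integrin probe set was among them, while 6 of the 13 had a limma p below 0.05 before adjustment. The study's own criterion was looser, 1.5-fold or more at p below 0.05 without adjustment, and by it 6.85% of all probe sets were higher and 6.78% lower in Runx3-/-. By that criterion 4 integrin probe sets, 1 of Itga1 and 3 of Itga4, were higher and 2, both of Itgae, were lower. Probe sets of 1 gene read the same transcript and are not separate observations. Of the 13 tested integrin probe sets, the Runx3-/- and WT arrays did not overlap in the same 4 that were higher and 2 that were lower. Over all 19120 tested probe sets, 7.99% were higher without overlap and 13.7% were lower without overlap. The lack of overlap comes from the same values as the criterion and is no separate support for it.

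**Figure D1:**
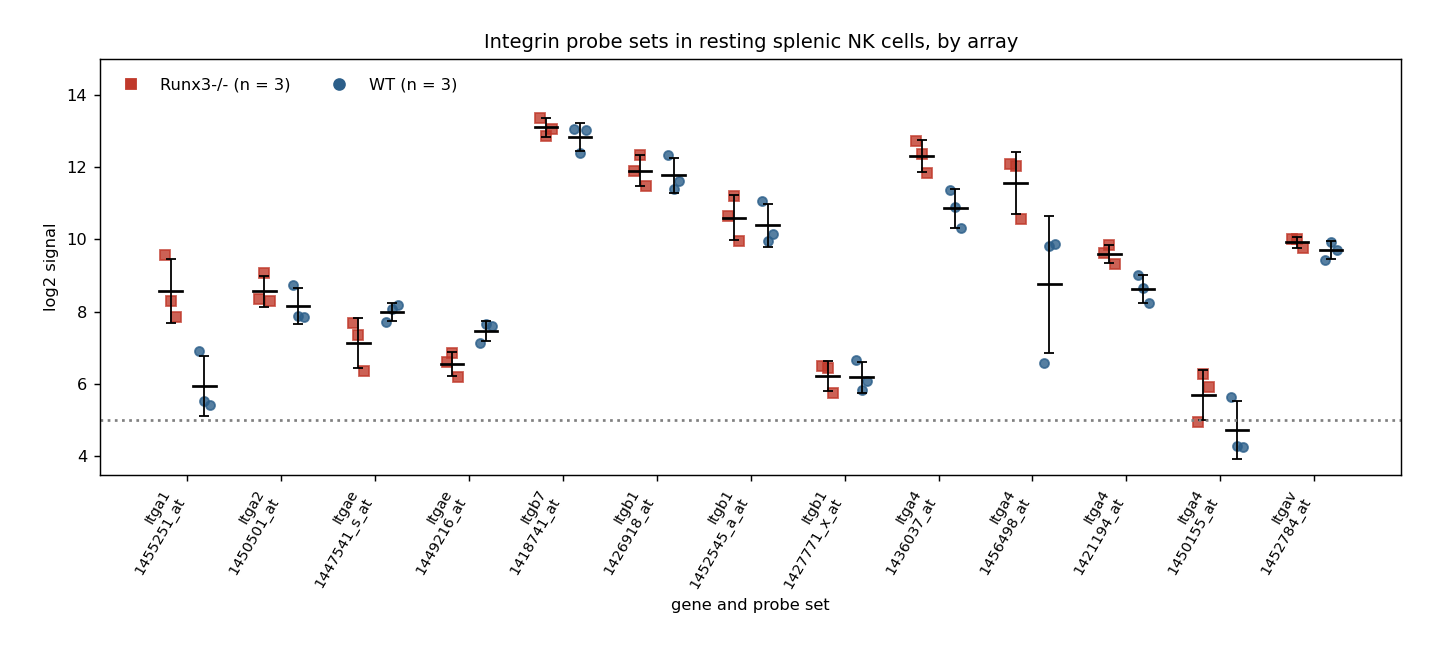
Log2 signal (vertical axis) of the 13 tested integrin probe sets (horizontal axis) on each array, with squares for Runx3-/-, circles for WT, black bars giving mean ± SD (n = 3) and a dotted line at log2 5. For Itga1 the Runx3-/- arrays lie between 7.84 and 9.57, above all WT arrays, and for both Itgae probe sets they lie below all WT arrays.

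Itga1, the alpha1 chain of a collagen receptor, had the largest change among the 7 genes on their brightest probe sets. Its log2 signal on probe set 1455251_at was 9.57, 8.31 and 7.84 in Runx3-/- and 6.91, 5.54 and 5.41 in WT. The lowest Runx3-/- array stood above the highest WT array, and Runx3-/- replicate 1 and WT replicate 1 were the highest of their groups. The mean was 8.57 ± 0.90 in Runx3-/- and 5.95 ± 0.83 in WT on the log2 scale (± SD, n = 3 per genotype). The difference was 2.62 ± 0.56 (log2, SE), or 6.16-fold higher in Runx3-/-, with a 95% confidence interval of 2.48-fold to 15.3-fold. It met the study's criterion but not BH 5% (limma adjusted p = 0.146). In these bulk samples, more cells of a type that express a gene and more RNA of it per cell cannot be told apart. Leaving out each array in turn moved the difference between 2.12 and 3.10 on the log2 scale, and it met the study's criterion under each of the 17 alternatives run. The other Itga1 probe set, 1439713_at, was below log2 5 on all arrays and was not tested.

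Itga2, the alpha2 chain of the other collagen receptor and the antigen of the sort, is given as a description, since the cells were selected for its protein. On its 1 probe set, 1450501_at, the log2 signal was 8.34, 9.06 and 8.31 in Runx3-/- and 8.73, 7.88 and 7.86 in WT, so that the groups overlapped. The difference was 0.41 ± 0.34 (log2, SE), 1.33-fold higher in Runx3-/- with a 95% confidence interval of 0.771-fold to 2.31-fold. The interval holds no change as well as a change of 2-fold.

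Whether Itga1 and Itga2 differed in their change was tested on the same arrays, with the limit that the cells had been selected for the Itga2 protein. Itga1 minus Itga2, each on its brightest probe set, was 1.24, -0.76 and -0.47 in Runx3-/- and -1.82, -2.34 and -2.45 in WT (log2). Every Runx3-/- array lay above every WT array, and the shift of 2.21 on the log2 scale is a 4.62-fold change of the ratio. An exact two-sided permutation test gave p = 0.1 (0.1 after BH over the 4 pairs of genes compared), which is the smallest that this test can give with 3 against 3 arrays, so that the permutation test cannot pass 0.05 here. Without Runx3-/- replicate 1 the shift was 1.59, and over all arrays left out in turn it ran from 1.59 to 2.59 on the log2 scale.

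The genes of these alpha chains are neighbours on mouse chromosome 13, with no other gene of the reference table between them. Their promoter windows are shown because the deleted factor binds a known short motif, and the genes, though adjacent, had unlike values. Each window runs from 250 bases before to 50 bases after the start of the gene (RefSeq, GRCm38.p6, both on the minus strand, written in the direction of the gene), Itga1 at chr13:115101915-115102214 and Itga2 at chr13:114932051-114932350. Capitals mark the RUNX motif, searched on both strands as TGTGGT or TGTGGC or TGCGGT or TGCGGC.
Itga1: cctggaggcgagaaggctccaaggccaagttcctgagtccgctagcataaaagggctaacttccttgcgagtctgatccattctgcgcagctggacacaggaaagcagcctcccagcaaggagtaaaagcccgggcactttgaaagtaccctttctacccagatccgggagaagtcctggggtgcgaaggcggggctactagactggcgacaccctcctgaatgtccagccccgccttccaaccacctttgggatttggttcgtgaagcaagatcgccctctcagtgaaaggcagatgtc
Itga2: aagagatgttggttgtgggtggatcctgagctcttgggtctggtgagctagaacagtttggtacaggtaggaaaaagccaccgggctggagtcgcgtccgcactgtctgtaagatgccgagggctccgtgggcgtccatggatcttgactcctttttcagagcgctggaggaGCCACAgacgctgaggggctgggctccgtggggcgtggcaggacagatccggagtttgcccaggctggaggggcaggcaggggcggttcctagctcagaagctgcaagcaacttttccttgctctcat
The Itga1 window held no such motif and the Itga2 window held 1. Of 32851 promoter windows of this length in the table, 45.2% held at least 1, so that a match is common. A match is a sequence description and no evidence that a factor bound there, and the same holds for the lack of one.

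Itga4, the alpha4 chain of the receptors for MAdCAM-1 and VCAM-1, was read by 4 tested probe sets, and all of them had a higher mean in Runx3-/-. On the brightest, 1436037_at, the log2 signal was 12.72, 12.35 and 11.84 in Runx3-/- and 11.38, 10.89 and 10.31 in WT. The groups did not overlap, and the difference of 1.44 ± 0.35 (log2, SE) is 2.72-fold (95% confidence interval 1.54-fold to 4.80-fold, limma adjusted p = 0.183). On 1421194_at the log2 signal was 9.62, 9.84 and 9.32 in Runx3-/- and 9.004, 8.65 and 8.23 in WT. The groups were again apart, with a 1.95-fold difference (95% confidence interval 1.26-fold to 3.04-fold, adjusted p = 0.210).

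The third Itga4 probe set, 1456498_at, had the widest spread of all integrin probe sets. Its log2 signal was 12.09, 12.02 and 10.57 in Runx3-/- and 6.57, 9.82 and 9.87 in WT, and WT replicate 1 stood far below the other WT arrays. The difference was 2.81 ± 0.91 (log2, SE), or 6.995-fold, with a 95% confidence interval of 1.58-fold to 30.9-fold (adjusted p = 0.251). Without WT replicate 1 the difference was 1.72 on the log2 scale. It no longer met the study's criterion without Runx3-/- replicate 1 (2.54) or without Runx3-/- replicate 2 (2.58). The fourth, 1450155_at, was near the background level, with 4.94, 6.27 and 5.91 in Runx3-/- and 5.64, 4.28 and 4.27 in WT (log2 signal). Its groups overlapped, and it did not meet the criterion (at least 1.43-fold with values under log2 5 raised to 5, adjusted p = 0.388). The remaining Itga4 probe set, 1427615_at, was below log2 5 on all arrays.

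When the 4 tested Itga4 probe sets were averaged on each array, the value was 9.84, 10.12 and 9.41 in Runx3-/- and 8.15, 8.41 and 8.17 in WT (log2). The Runx3-/- mean was 9.79 ± 0.36 and the WT mean 8.24 ± 0.15 (SD, n = 3 each), a 2.92-fold difference. On the single probe sets the WT SD was larger, from 0.39 on 1421194_at to 1.89 on 1456498_at. WT replicate 1 was the lowest WT array on 1456498_at and the highest on the others, so that its deviations offset each other in the mean. In a fit with such a mean for each of 9551 genes, in which 0.597% of the genes passed BH 5%, Itga4 was among them (limma adjusted p = 0.0458). It passed in none of the fits that left out 1 array, where its adjusted p ran from 0.0596 to 0.177 while the difference stayed between 1.38 and 1.74 on the log2 scale. With 1 probe set per gene, the brightest, 0.608% of 9545 genes passed BH 5%, and none of the 7 integrin genes did. The lowest adjusted p there were those of Itga1 (0.101) and Itga4 (0.132).

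The Itga4 window (RefSeq, GRCm38.p6, chr2:79255176-79255475, plus strand, RUNX motif in capitals) is shown since it was the one among the windows of these integrin genes that held the motif in 2 places.
Itga4: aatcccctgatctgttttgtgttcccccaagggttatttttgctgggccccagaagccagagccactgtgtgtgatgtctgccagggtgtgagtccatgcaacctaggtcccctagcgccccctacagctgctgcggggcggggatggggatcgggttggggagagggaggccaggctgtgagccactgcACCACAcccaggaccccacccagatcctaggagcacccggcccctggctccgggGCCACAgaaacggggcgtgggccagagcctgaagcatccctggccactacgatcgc
The motifs began 60 and 6 bases before the start of the gene, and 12.8% of all windows held 2 or more. Windows for 6 of the 7 genes matched by symbol, all but Itgae, and 4 of the 6 held a motif (Itga2, Itgb1, Itga4 and Itgav). The windows of Itgav and Itgb7 lay inside the gene as bounded in the reference table, not at its outer start. That of Itgav was chr2:83724147-83724446, with the gene from 83722303. That of Itgb7, on the minus strand, was chr15:102231886-102232185, with the gene up to 102233405.

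**Figure D2:**
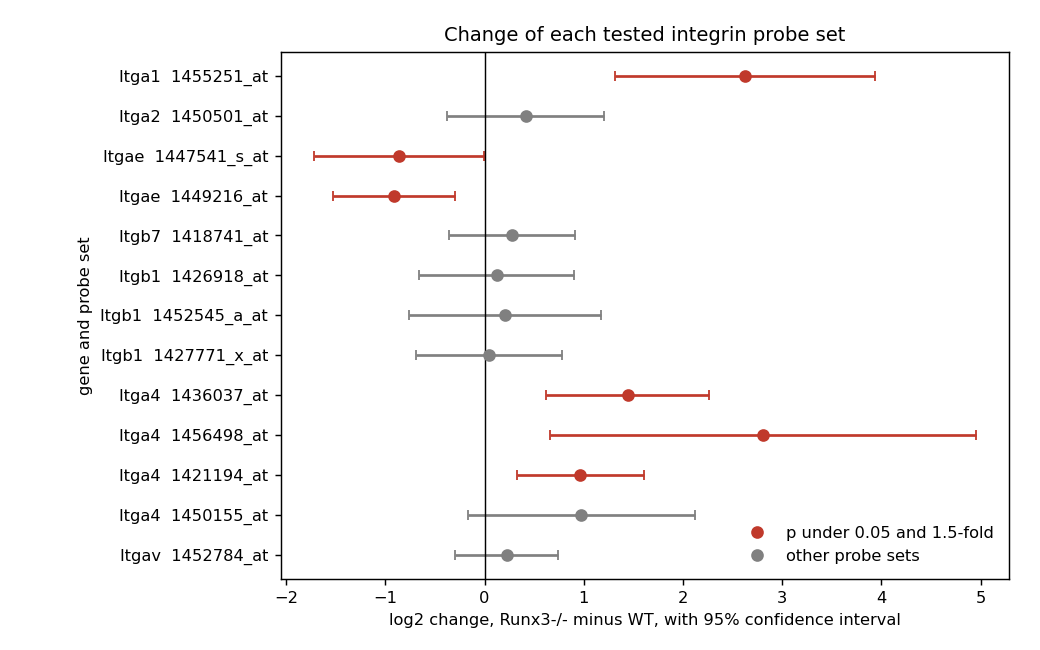
Log2 change, Runx3-/- minus WT (horizontal axis), with its 95% confidence interval from limma, for each tested integrin probe set (vertical axis), red where the study's criterion was met. The 3 brighter Itga4 probe sets and Itga1 lie to the right of 0, both Itgae probe sets to the left, and the intervals of Itga2, Itgb7, Itgb1 and Itgav span 0.

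Itgae, the alphaE chain that binds E-cadherin, was the member that was lower. On probe set 1449216_at the log2 signal was 6.60, 6.86 and 6.21 in Runx3-/- and 7.14, 7.66 and 7.60 in WT. No Runx3-/- array reached the lowest WT array, and the difference was -0.91 ± 0.26 (log2, SE), or 1.88-fold lower (limma adjusted p = 0.216). The 95% confidence interval ran from 0.347-fold to 0.813-fold of WT. The other probe set, 1447541_s_at, whose suffix marks oligonucleotides that can match more than 1 transcript, had 7.68, 7.36 and 6.35 in Runx3-/- and 7.72, 8.07 and 8.19 in WT (log2 signal). Its difference of -0.86 ± 0.37 (log2, SE), 1.82-fold, was close in size, but the groups were apart by little, with Runx3-/- replicate 1 next to WT replicate 1. It met the study's criterion narrowly (limma unadjusted p = 0.0499, adjusted p = 0.336) but failed it under 9 of 16 alternatives, for example when Runx3-/- replicate 3 was left out (-0.47 on the log2 scale). The call on 1449216_at held in all 16 alternatives in which that probe set was tested, with differences of -0.74 to -1.08.

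Itgb7, the beta chain that both alphaE and alpha4 can take, was read by 1 probe set, 1418741_at. Its log2 signal was 13.37, 12.86 and 13.06 in Runx3-/- and 13.05, 12.38 and 13.03 in WT. The groups overlapped, and the difference was 0.27 ± 0.27 (log2, SE), with a 95% confidence interval of 0.780-fold to 1.88-fold and an adjusted p of 0.651. Relative to Itgb7 on the same arrays, Itgae on its brightest probe set, 1447541_s_at, was -5.68, -5.50 and -6.71 in Runx3-/- and -5.33, -4.31 and -4.85 in WT (log2 difference of signals, which ranks no level of one gene against the other). Relative to Itgb7, Itga4 was -0.65, -0.51 and -1.22 in Runx3-/- and -1.68, -1.49 and -2.72 in WT. The mean differences of these ratios had opposite signs, -1.13 for Itgae and 1.17 for Itga4 on the log2 scale, with no overlap between the groups in either (exact two-sided permutation p = 0.1 each, the smallest possible, and 0.1 after BH over the 4 pairs). With 1 array left out they ran from -1.39 to -0.76 for Itgae and from 0.79 to 1.41 for Itga4.

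Itgb1, the beta chain of both collagen receptors, had 3 tested probe sets, none of which met the study's criterion. On the brightest, 1426918_at, the log2 signal was 11.88, 12.33 and 11.48 in Runx3-/- and 12.32, 11.40 and 11.60 in WT. The groups overlapped throughout, and the difference was 0.12 ± 0.33 (log2, SE), with a 95% confidence interval of 0.633-fold to 1.87-fold (adjusted p = 0.889). The differences on 1452545_a_at and 1427771_x_at were 0.21 and 0.045 on the log2 scale, and the direction on all 3 turned with the array left out. Relative to Itgb1, Itga4 was 0.84, 0.020 and 0.36 in Runx3-/- and -0.95, -0.51 and -1.29 in WT, a shift of 1.32 on the log2 scale (exact two-sided permutation p = 0.1, the smallest possible). The other 3 Itgb1 probe sets lay below log2 5 on every array.

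Itgav, the alphaV chain that binds vitronectin and latent TGF-beta, was read by 1 tested probe set, 1452784_at. Its log2 signal was 10.004, 10.002 and 9.75 in Runx3-/- and 9.44, 9.94 and 9.71 in WT. The groups overlapped, and the difference was 0.22 ± 0.22 (log2, SE), with a 95% confidence interval of 0.816-fold to 1.67-fold (adjusted p = 0.654). The other 4 Itgav probe sets were below log2 5 on every array.

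The integrin genes outside these 7 went both ways as well. Of 20 listed, 18 had a probe set with 1 symbol and 11 could be tested on their brightest. Of these 11, 3 were higher and 1 was lower at the study's criterion, against 4.89% higher and 8.86% lower over all genes tested, and none passed BH 5%. Their changes had a median of 0.17 (log2), against -0.13 over all genes. Itgax, the CD11c chain, was 9.91, 8.63 and 9.30 in Runx3-/- and 10.58, 11.84 and 11.41 in WT (log2 signal), 4.01-fold lower with no overlap (adjusted p = 0.105). Itgb3, which pairs with alphaV and with the platelet chain alphaIIb, was 9.97, 9.03 and 8.95 in Runx3-/- and 6.97, 7.40 and 8.83 in WT, 3.00-fold higher with WT replicate 3 just below the Runx3-/- arrays (adjusted p = 0.208). Itga6, a laminin receptor chain, was 1.53-fold higher (adjusted p = 0.282), and Itga8 was at least 1.39-fold higher, with 2 of 6 arrays at log2 5 or more (adjusted p = 0.205). Those 2 arrays were Runx3-/-, so that Itga8 was tested only through the group where it was higher, and its groups overlapped. The beta2 chain Itgb2 and its partner Itgal, which form the leukocyte integrin LFA-1, had changes of 0.17 and 0.19 on the log2 scale and did not meet the criterion.

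**Figure D3:**
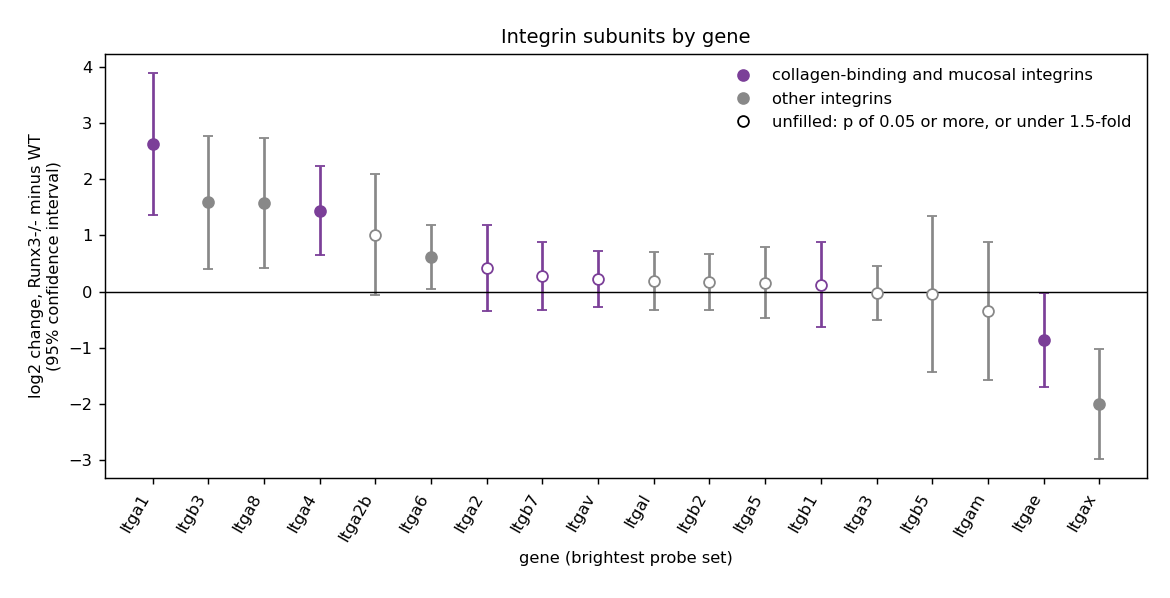
Log2 change, Runx3-/- minus WT (vertical axis, limma 95% confidence interval), of every tested integrin gene on its brightest probe set (horizontal axis, ordered by change), purple for the 7 genes described and grey for other integrins, filled where the study's criterion was met. Itga1 stands at the upper end with 2.62 and Itgax at the lower end with -2.00.

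Of 18 ligand genes listed, 16 had a probe set with 1 symbol and 6 were tested, with 2 higher and 1 lower at the study's criterion, 0 past BH 5% and a median change of 0.61. The 7 collagen genes on the list were below log2 5 on every array. Cdh1, E-cadherin and so the ligand of the CD103 integrin, was 11.96, 11.43 and 11.17 in Runx3-/- and 10.07, 9.99 and 10.59 in WT (log2 signal). The groups did not overlap and the difference was 2.47-fold (limma adjusted p = 0.113), in the direction opposite to that of Itgae. Tgfb1, a cytokine held latent until integrins such as alphaV release it, was 8.47, 7.86 and 8.13 in Runx3-/- and 9.72, 8.36 and 9.35 in WT, 1.98-fold lower with overlap (adjusted p = 0.260). Lama5, a laminin chain, reached log2 5 on 1 array only, Runx3-/- replicate 1, and is at least 1.07-fold higher. Of 31 genes that link integrins to the cytoskeleton or activate them, 30 had a probe set with 1 symbol and 25 were tested, with 2 higher, 0 lower and a median change of 0.027. These were Vcl, vinculin (1.70-fold, adjusted p = 0.224), and Apbb1ip, the Rap1 effector RIAM (at least 2.90-fold, adjusted p = 0.185). Tln1, talin, and Fermt3, the kindlin of blood cells, had differences of 0.027 and -0.15 on the log2 scale. None of 8 tested negative regulators out of 10 met the criterion (median change -0.073). The share over all genes tested was 4.89% higher and 8.86% lower.

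The integrins described are carried by cell types other than NK cells, and DX5 by basophils and platelets, so marker lists are set beside them. Basophil and mast cell markers were mostly higher in Runx3-/-. Il4, Kit and Cd200r3 had changes of 0.89, 0.09 and -0.36 on the log2 scale and did not meet the study's criterion. It was met by 7 of 10 tested, all of them higher and 2 past BH 5%, with 0 lower. In addition, 1 further marker, Tpsb2, was below log2 5 on every array. The 4 with the smallest p were Hdc, the histamine-forming enzyme (3.97-fold, adjusted p = 0.0373), Cyp11a1 (4.05-fold, adjusted p = 0.0486), Ms4a2, a chain of the IgE receptor (4.89-fold, adjusted p = 0.0672), and the basophil protease Mcpt8 (3.04-fold, adjusted p = 0.0959). Their mean log2 signal over 11 genes was 10.21, 9.22 and 9.25 in Runx3-/- and 8.39, 8.04 and 8.43 in WT. The sum of their signals ran from 14.5 to 15.3 in Runx3-/- and from 13.0 to 13.3 in WT (log2 of the summed linear signal), without overlap. Runx3-/- replicate 1 was the highest array for these markers and for Itga1. The other Runx3-/- arrays, at 9.22 and 9.25, also lay above all WT arrays for these markers. Without Runx3-/- replicate 1 the difference was 2.12 for Itga1 and 1.24 for Itga4 on 1436037_at (log2).

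Macrophage and monocyte markers had 2 of 10 higher, Adgre1 and Cd14, and 0 lower, with means of 9.09, 7.28 and 4.62 in Runx3-/- and 6.16, 6.13 and 6.15 in WT, and sums from 9.05 to 13.6 in Runx3-/- and from 11.04 to 11.42 in WT (log2). Runx3-/- replicate 3 was the lowest of all arrays for them. Cd14 reached log2 5 on 1 array only, Runx3-/- replicate 1, and is at least 1.16-fold higher, with overlapping groups. B cell markers, 2 of 6 tested higher (Cd79a and Ms4a1) and 0 lower, had means of 6.88, 6.14 and 5.68 in Runx3-/- and 5.99, 4.64 and 4.93 in WT, and sums from 9.80 to 11.2 in Runx3-/- and from 8.61 to 10.2 in WT, with Pax5 below log2 5 on every array. Cd79a reached log2 5 on Runx3-/- arrays only, so that it was tested through that group alone, and is at least 1.74-fold higher. For Ms4a1 the groups overlapped. Markers of type 1 innate lymphoid cells other than Itga1, 3 of 6 higher (Cd200r1, Cxcr6 and Tmem176b) and 0 lower, had means of 8.75, 8.83 and 8.75 in Runx3-/- and 7.32, 8.15 and 8.32 in WT, and sums from 12.04 to 12.42 in Runx3-/- and from 11.2 to 12.3 in WT. Platelet markers had 1 of 6 tested higher, Itgb3, and 1 lower, Gp1bb, with sums from 11.4 to 12.1 in Runx3-/- and from 10.7 to 12.1 in WT, and Gp9, Gp6 and Treml1 below log2 5 on every array. T cell markers had 0 of 5 tested higher or lower, with Cd4, Cd8a, Cd8b1 and Cd6 below log2 5 on every array. Dendritic cell markers had 1 of 3 tested lower, Itgax, which was also counted among the other integrins, with Xcr1, Siglech, Ccr9 and Cd209a below log2 5 on every array. The other tested dendritic cell markers changed by -0.35 and 0.44 on the log2 scale and did not meet the criterion. Neutrophil markers had 1 of 7 lower, Camp. Camp reached log2 5 on 2 of 6 arrays, both WT, and its groups overlapped. Each of these counts stands beside 4.89% higher and 8.86% lower over all genes tested. The part of these cell types in the integrin values was not tested.

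**Figure D4:**
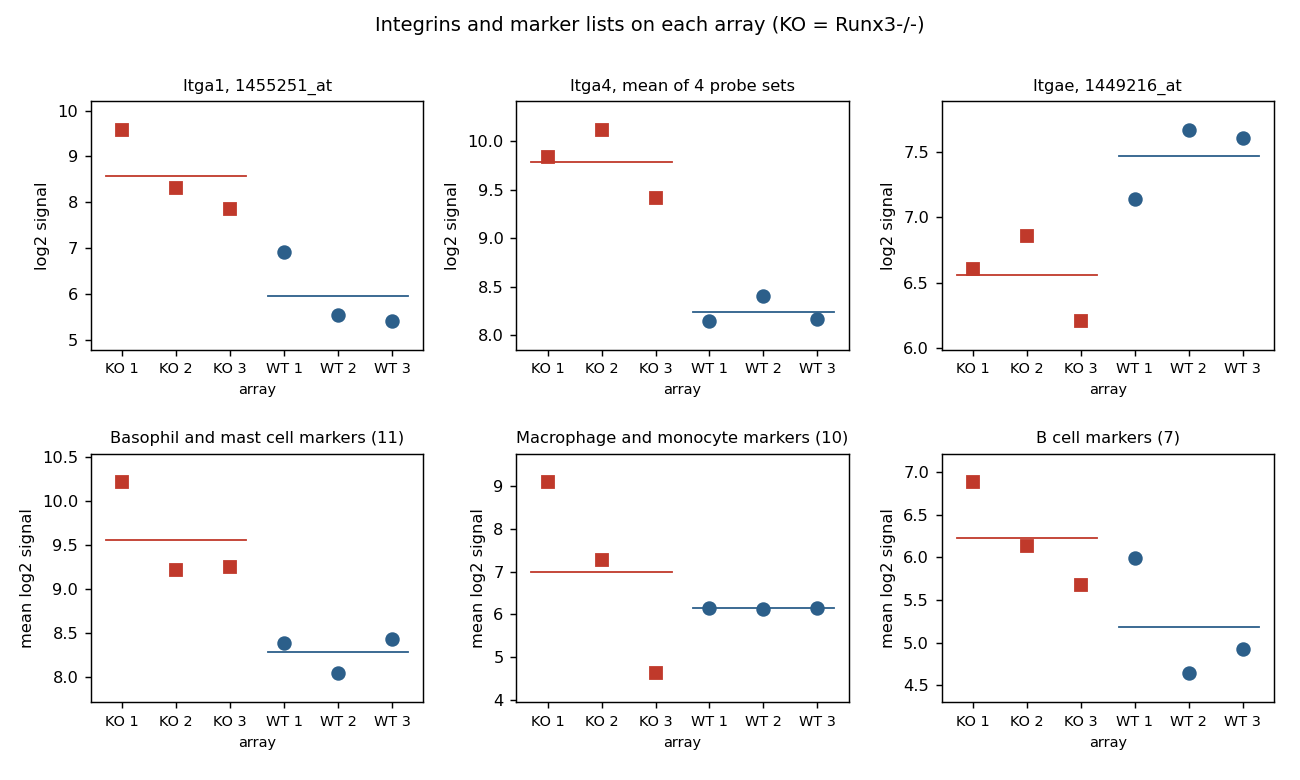
Log2 signal of Itga1, of Itga4 (mean of its 4 tested probe sets) and of Itgae, and mean log2 signal of the basophil and mast cell, macrophage and monocyte, and B cell markers (vertical axes) on each array (horizontal axes, KO for Runx3-/-), with lines at the group means. Runx3-/- replicate 1 is the highest array for Itga1 and for all 3 marker lists, while Runx3-/- replicate 2 is the highest for the Itga4 mean, though not on 1436037_at or 1456498_at, where replicate 1 is.

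Of the tested genes beside or within the integrin genes, all named here, 1 met the study's criterion, Rarg. Over all genes tested, 4.89% were higher and 8.86% lower by it. Pelo, a ribosome rescue factor whose gene lies within Itga1, had 8.26, 8.06 and 8.39 in Runx3-/- and 7.93, 8.13 and 8.60 in WT (log2 signal), a difference of 0.018. Haspin, a mitotic kinase whose gene lies within Itgae, had 9.48, 9.66 and 9.58 in Runx3-/- and 9.73, 9.73 and 9.54 in WT, a difference of -0.094. The groups overlapped for both. Rarg, a retinoic acid receptor gene next to Itgb7, was 8.20, 7.90 and 7.58 in Runx3-/- and 7.07, 7.12 and 7.21 in WT, 1.69-fold higher (limma adjusted p = 0.180). Of the other neighbours with a probe set, Mocs2 beside Itga2, Ncbp3 beside Itgae, Zfp740 beside Itgb7 and Zc3h15 beside Itgav did not meet the criterion, and P2rx5, Cerkl and Fam171b were below log2 5 on every array.

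Over the 6 arrays, the genes whose pattern was most like that of Itga1 among 7459 genes with a mean log2 of at least 7 were H2-Aa, a chain of MHC class II (Pearson r = 0.995), Phf6, a chromatin protein (r = 0.9903), and Dmxl2, a regulator of the vacuolar proton pump (r = 0.985). For Itga2 they were Lin54 (r = 0.995), the DNA-binding part of a cell cycle complex, Ppp2r5c (r = 0.992), a phosphatase subunit, and Zc3h7a (r = 0.9904). For Itgae, on 1447541_s_at, they were Lmna, lamin A/C (r = 0.989), Nol4l (r = 0.986) and Dnase1l1 (r = 0.985). With 6 points that share the split into Runx3-/- and WT, 26, 34 and 39 genes had r over 0.95 with Itga1, Itga2 and Itgae, so that these are descriptions of 6 arrays.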

How the data were processed

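RNA of sorted DX5+ splenic NK cells, 3 Runx3-/- and 3 WT samples, was labelled and hybridised to Affymetrix mouse expression arrays, 1 per sample. The authors processed the scanner files with GC-RMA in Partek and deposited log2 signals for 45101 probe sets. GC-RMA subtracts a background modelled from base content and brings arrays to a common distribution, so that a change in total RNA cannot be seen and dim values follow the background model. The 64 control probe sets were left out. Genes were named through the platform annotation. Groups and replicate numbers came from the sample titles.

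Differences, Runx3-/- minus WT, were fitted in limma 3.58.1 under R 4.3.3 (lmFit and eBayes, 6 arrays, no covariate) on the 19120 probe sets with log2 of at least 5 on at least 1 array, with BH adjustment over all of them. For the study's background level and test, not given in the sources used here, log2 5 and limma stood in. Lists of other genes were read from a fit with the brightest probe set of each of 9545 genes. A fold is a lower bound ("at least") where an array of the lower group was under log2 5, and was then computed after lifting such values to 5. Pairs of members were compared by exact permutation over 20 assignments. No set test was run. Promoter windows and gene neighbours came from RefSeq tables of GRCm38.p6, matched by symbol.

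The text names all members and their probe sets, up to 4 genes of each list that met the study's criterion with the smallest p, the 3 genes most correlated with Itga1, Itga2 and Itgae, the neighbours in the reference table, and Runx3. Tln1, Fermt3, Itgal, Itgb2, Vcam1, Il4, Kit, Cd200r3 and the markers below log2 5 were named after their values were seen. The members and lists were chosen with earlier results of these data known. The fit was tested on simulated data. Precision was limited by the small number of arrays. The limma p-values set a difference against the spread between arrays within groups, moderated over all probe sets or genes tested. The alternatives were other filters, normalizations, a floor, moderation, array weights, probe set choices, a replicate block and leaving out each array.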

Additional observations from a re-analysis of the deposited data

How the results depend on the processing

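The differences between pairs of members kept their direction in all 9 alternatives, as did Itga1, Itga2, Itgae, Itga4, Itgb7 and Itgav on every tested probe set in theirs. Of all probe sets, 16 passed BH 5%, against 6 with no filter on level, 8 with values under log2 5 raised to 5, 31 with trend and robust moderation, 139 with array weights, 58 with 1 probe set per gene and 3 to 184 with 1 array left out. The highest count came without WT replicate 1 and the other 5 fits gave 3 or 4. The 4 integrin probe sets that were higher became 2 with 1 probe set per gene, by construction, and 3 to 5 with 1 array left out. The 2 that were lower became 1 with no filter, with each array centred on its median, with the floor at 5, without _x_at and _s_at probe sets and with 1 probe set per gene, and 1 to 2 with 1 array left out. Fewer Itgae probe sets entered the settings without _s_at probe sets and with 1 per gene, and 1447541_s_at was the one lost in the others. Elsewhere the cause was not tested.

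The sign of Itgb1 turned on 1427771_x_at with quantile normalization (-0.051 on the log2 scale), and with 1 array left out its change ran from -0.14 to 0.28, that on 1426918_at from -0.10 to 0.40 and that on 1452545_a_at from -0.089 to 0.55. With the replicate number of the labels as a replicate block, 2 probe sets passed BH 5% and 1 integrin probe set was lower. In that fit the limma adjusted p was 0.0988 for Itga1 and 0.157 for Itga4 on 1436037_at. Deviations from the group mean had r = 0.0028, -0.16 and 0.13 between arrays of the same number. Between arrays of different numbers r ran from -0.21 to 0.21. Whether a number stands for a shared litter or day is not given by the labels, and so few pairs cannot decide it. For the mean of the Itga4 probe sets, leaving out arrays was chosen after seeing the data.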

Other observations

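Runx3-/- replicate 1 stood apart on dim probe sets of both integrins that were higher. On 1439713_at of Itga1 it had a log2 signal of 4.49, against 3.35 and 3.33 on the other Runx3-/- arrays and 3.25, 3.26 and 3.30 in WT. On 1427615_at of Itga4 it had 4.58, against 3.23 and 3.46 on the other Runx3-/- arrays and 3.31, 3.40 and 3.41 in WT. All of these values lie below the level of log2 5 and were not tested. Vcam1, a ligand of the alpha4 integrins that is also on the macrophage list, had 11.51, 10.01 and 4.99 in Runx3-/- and 8.34, 7.78 and 8.28 in WT, the widest spread within Runx3-/- among the tested ligand genes.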
